A study of Lentinus brumalis with 11 samples.

Results

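In the white-rot fungus *Polyporus brumalis*, 137 of 18244 predicted genes had fewer transcripts than the liquid control after 4 days on wheat straw and more transcripts than that control after 15 days. White-rot fungi break down lignin together with the polysaccharides of plant cell walls, and they do so by secreting oxidative and hydrolytic enzymes from a growing mycelium. In solid-state fermentation (SSF) the mycelium colonises moist plant material without free water, so that a culture moved out of liquid medium meets a new carbon source, a new surface and a new supply of oxygen.

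All cultures were of the dikaryotic strain BRFM 985, and reads were mapped to the sequenced genome of a monokaryon obtained from it. The control was grown as a stationary liquid culture on malt extract for 10 days. Malt extract was at 2% in the control and in the liquid phase of the SSF cultures. The SSF cultures were first grown in liquid malt extract and then moved to wheat straw wetted with a metal solution, and the straw cultures were sampled on Days 4, 10 and 15. The preliminary liquid phase lasted 6 days by the sample labels, while the methods of the study give another length for it. By the labels the Day 4 cultures had the same total age as the control, and the Day 10 and Day 15 cultures were older. In those later groups culture age and growth on straw cannot be told apart. No library was taken from the liquid phase before the move. A dip or rise below is therefore a difference from the parallel control, not from the start of the straw culture. There were 3 control libraries, 2 from Day 4, 3 from Day 10 and 3 from Day 15, and each was a bulk library of paired-end reads.

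The value of a gene in a library, called its level here, was log2(count divided by the library's median-of-ratios size factor, plus 1). A gene was a member when its mean level on Day 4 was at least 1 below the control mean, its mean on Day 15 was at least 1 above the control mean, and its mean on Day 15 was at least 6. Genes in the study's tables of lignocellulose-active enzymes and of its core set, highly transcribed throughout SSF, were to be left out. The tables as read held 125 genes, fewer than the study counts in its core set alone. Of these 125 genes, 0 met the numeric limits. The values on Day 4, on Day 15 and in the control therefore chose the genes, and they are given below as a description. Only the Day 10 libraries took no part in the choice.

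Library totals ran from 20368063 to 42408348 counts. The deposited table and the annotation table identify these genes by protein number alone, so no function is given for any of them. All 137 passed the filter on low counts, as did 15462 genes in all. Day 10 replicate 3 stood apart from the other Day 10 libraries. Over all genes its chi-square per gene was 94.4 against replicate 1 and 90.4 against replicate 2, where replicates 1 and 2 differed by 26.0. Tests of Day 10 against the control are therefore given with and without it.

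The median level of the 137 genes was 8.12 in the control, 6.41 on Day 4, 9.20 on Day 10 and 10.15 on Day 15. The median difference from the control was -1.48 on Day 4, with a range of -9.01 to -1.01, and 1.64 on Day 15, with a range of 1.01 to 4.58. Over the 16334 genes that any library detected the same medians were -0.05 on Day 4 and -0.02 on Day 15. As the libraries are bulk RNA, fewer cells that transcribe a gene and less RNA per cell cannot be told apart. The dip reached at least 2 in 45 genes and at least 3 in 24, while the late rise reached at least 2 in 42 and at least 3 in 9. In 68 genes the dip was larger than the late rise, and in the other 69 the late rise was the larger.

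**Figure D1:**
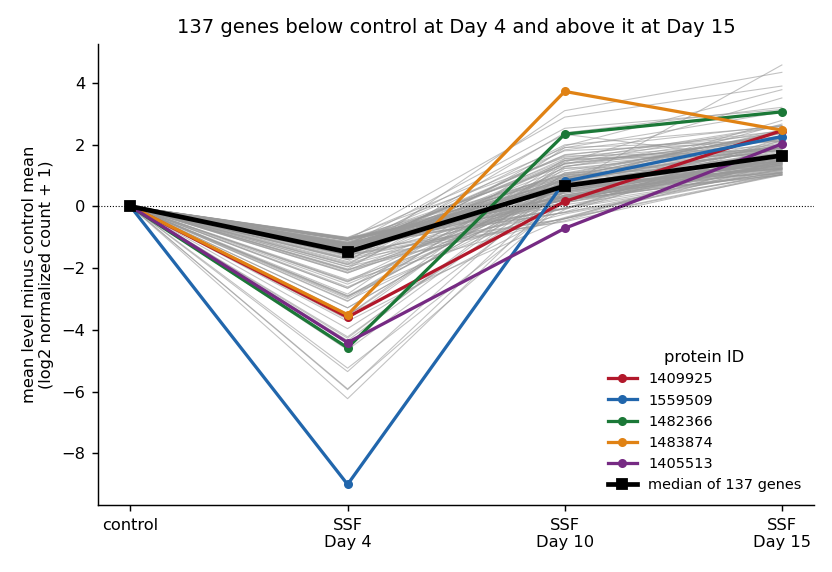
Mean level of each of the 137 genes minus its control mean (y axis, log2 scale) in the control and on Days 4, 10 and 15 of SSF (x axis). Grey lines are single genes, coloured lines are 5 named genes, and the black line is the median, which lay at -1.48 on Day 4, 0.66 on Day 10 and 1.64 on Day 15.

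The limits divided a continuous distribution. Just inside the Day 4 limit were gene 1485553 at -1.01 and gene 1355015 at -1.02, and just outside it were genes 883315 and 1475480, both at -0.998. Just inside the Day 15 limit were genes 1041794 and 1458787, both at 1.01, against 0.99 for gene 469922 and 0.98 for gene 1182286 just outside. On the Day 15 level, genes 372686 and 263643 were just inside at 6.01 and 6.14, against 5.98 for gene 1446025 and 5.95 for gene 1364079 just outside.

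In counts of transcripts these genes took up a small part of the early SSF libraries and a much larger part of the late ones. Their share of all counts was 2.46%, 2.55% and 2.63% in the control libraries, 0.330% and 0.396% on Day 4, 4.16%, 4.31% and 2.04% on Day 10, and 7.91%, 9.04% and 8.30% on Day 15. The mean share was 2.55% ± 0.0882 in the control (SD, n = 3), 0.363% ± 0.0465 on Day 4 (n = 2), 3.50% ± 1.27 on Day 10 (n = 3) and 8.41% ± 0.573 on Day 15 (n = 3). Only on Day 10 did the libraries differ widely, with replicate 3 below every control library and replicates 1 and 2 above all of them. Without the 10 most abundant genes of each library the mean share was 2.06% in the control, 0.400% on Day 4, 3.15% on Day 10 and 4.14% on Day 15.

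**Figure D2:**
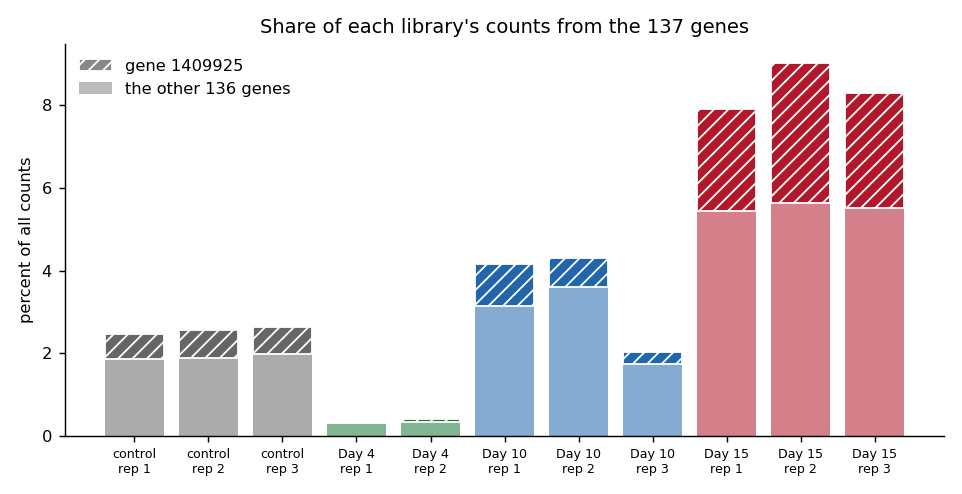
Percent of each library's counts that fell on the 137 genes (y axis) in the 11 libraries (x axis, by group and replicate). The hatched part is gene 1409925 and the plain part the other 136 genes; together they took 0.330% and 0.396% on Day 4 and at least 7.91% in each Day 15 library.

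A few genes held most of this share. On Day 15 the 5 genes with the highest levels gave 61.3% of the counts of all 137 (mean over the libraries), the first 10 gave 72.9% and the first 20 gave 85.5%. The first of them, gene 1409925, had 250570, 238544 and 274310 counts in the control libraries, 7117 and 13288 on Day 4, 230633, 170352 and 67086 on Day 10, and 503705, 762745 and 1019705 on Day 15. Ordered by count, it was the gene in place 4 in all control libraries and in place 624 and 254 on Day 4, then in place 2, 3 and 28 on Day 10 and in place 1 in every Day 15 library. By itself it gave 2.47%, 3.41% and 2.79% of the Day 15 counts. Without it the other genes still made up 1.91% of the counts in the control, 0.321% on Day 4, 2.83% on Day 10 and 5.52% on Day 15.

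The same gene led when counts were set on gene length. Per base of gene span, introns included, gene 1409925 had 1121 normalized counts on Day 15, against 202.7 in the control. The genes next to it on Day 15 on this scale were 1396291 with 156.7, 1559509 with 143.4, 1359157 with 127.9, 1403378 with 119.5 and 1560534 with 107.9 normalized counts per base. On Day 4 gene 1396291 was at 21.5 normalized counts per base, whereas gene 1559509 was at 0.0593. The genes of this group were often short, with a median span of 1178 bases (range 168 to 4464) against 1510 bases over all genes with a count, and 93 of the 137 were below that median. The median span of genes that dipped on Day 4 and were within 1 of the control on Day 15 was 1257 bases. For genes within 1 of the control on Day 4 and at least 1 above it on Day 15 it was 1504 bases. These medians were not tested against each other.

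Counted over the whole group, fewer genes had high levels on Day 4 than in the control, and more had them on Days 10 and 15. A mean level above 12 was found for 24 genes in the control, 6 on Day 4, 35 on Day 10 and 50 on Day 15. Of the 24 in the control, 6 were also above 12 on Day 4. The other 18 were above it on Day 10, and all 24 were above it on Day 15. Another 11 genes were above this level on Day 10 but not in the control. Of the 50 on Day 15, 26 were not above it in the control. Over all genes the numbers above 12 were 1082 in the control, 1413 on Day 4, 1214 on Day 10 and 1263 on Day 15.

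The most abundant members dipped to very different depths. The level of gene 1559509 was 15.19, 15.06 and 15.36 in the control, 5.82 and 6.57 on Day 4, 16.21, 16.72 and 15.11 on Day 10, and 17.53, 17.41 and 17.45 on Day 15. Its raw counts were 46 and 68 on Day 4, against 66930, 51190 and 74223 in the control. It had the deepest dip of the group (-9.01). Each Day 15 library lay above every control library, as in all 137 genes (background 37.6%), which the rule favours.

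Gene 1396291, by contrast, had a high level on Day 4. It was at 16.21, 16.24 and 16.37 in the control, 14.87 and 15.06 on Day 4, 16.82, 16.83 and 16.24 on Day 10, and 17.73, 17.98 and 17.79 on Day 15. Gene 1359157 had a similar shallow dip and a larger late rise. Its levels were 14.33, 14.46 and 14.27 in the control, 12.93 and 13.00 on Day 4, 16.25, 16.36 and 15.41 on Day 10, and 16.79, 16.83 and 16.76 on Day 15. In neither gene did any Day 4 library overlap a control library.

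Gene 1560534 was at 14.90, 14.98 and 15.13 in the control, 9.60 and 9.70 on Day 4, 16.09, 16.64 and 14.98 on Day 10, and 16.79, 17.02 and 17.04 on Day 15. Gene 1466469 was at 13.67, 14.08 and 14.00 in the control, 9.63 and 10.74 on Day 4, 14.87, 14.06 and 12.49 on Day 10, and 15.95, 16.52 and 15.93 on Day 15. The third Day 10 replicate of gene 1466469 was thus lower than every control library, while the first was higher than all of them. In gene 1560534 it lay within the control range.

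Other genes with a wide swing had lower levels in the control. Gene 1482366 had levels of 11.10, 11.11 and 11.26 in the control, 6.47 and 6.68 on Day 4, 14.10, 13.86 and 12.52 on Day 10, and 14.11, 14.36 and 14.17 on Day 15. Gene 1454452 was at 13.59, 13.69 and 13.54 in the control, 7.36 and 7.39 on Day 4, 14.34, 14.54 and 13.52 on Day 10, and 14.82, 14.70 and 15.05 on Day 15. The Day 4 libraries nearly coincided in both genes, and on Day 10 replicate 3 was the lowest library of its group in both.

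Genes 1403378 and 1482884, which lie close to each other in the genome, had less even values on Day 4. Gene 1403378 was at 14.35, 14.38 and 14.55 in the control, 7.52 and 9.50 on Day 4, 15.18, 15.50 and 13.07 on Day 10, and 15.95, 16.08 and 15.98 on Day 15. Gene 1482884 was at 12.36, 12.51 and 12.69 in the control, 6.04 and 7.13 on Day 4, 14.31, 14.30 and 11.03 on Day 10, and 14.34, 14.34 and 14.27 on Day 15. In both genes Day 10 replicates 1 and 2 were above every control library and replicate 3 below every one.

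**Figure D3:**
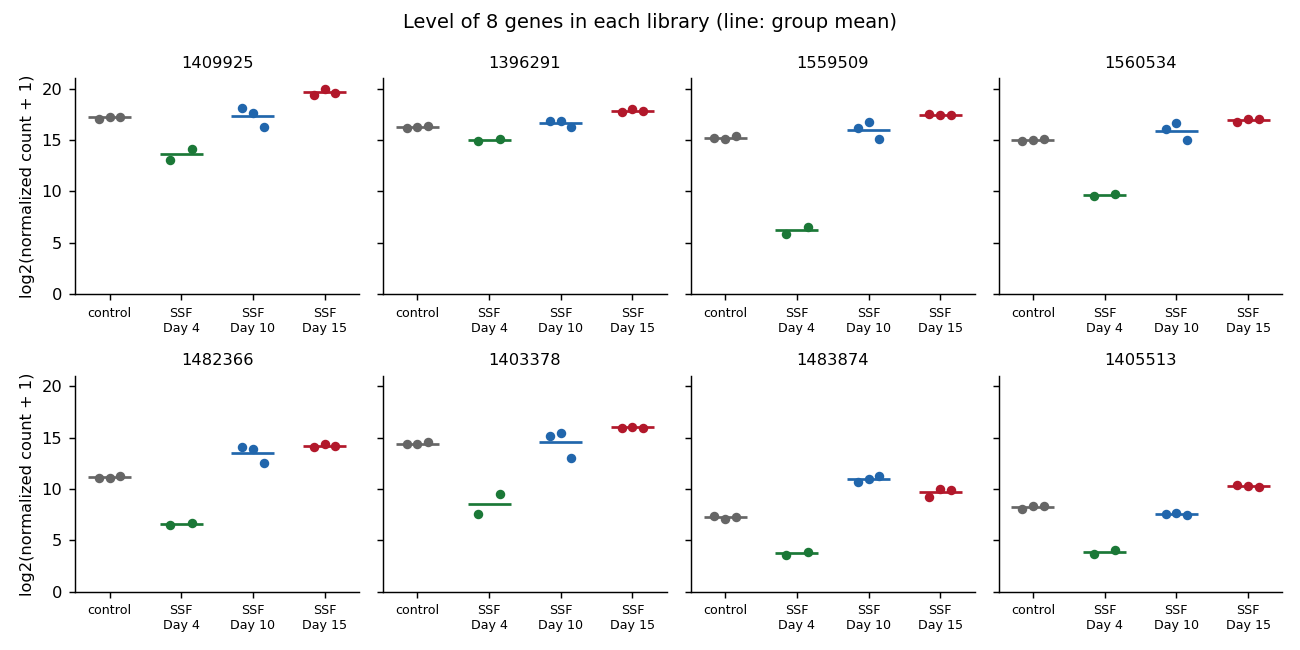
Level of 8 of the genes, log2(normalized count + 1) on the y axis, in each library of the control and of Days 4, 10 and 15 of SSF (x axis); points are libraries and lines are group means. The Day 4 points lie below the control points and the Day 15 points above them in every panel, and gene 1483874 is the one of the 8 whose Day 10 libraries, at 10.65 to 11.24, all lie above its Day 15 libraries.

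By the test across all genes, edgeR's quasi-likelihood test with an adjusted p of 0.05, 129 of the 137 genes were lower on Day 4 than in the control, where 32.2% of all tested genes were lower, and 0 were higher, where 30.1% were. On Day 15, 135 were higher than in the control, against 33.0% of all tested genes, and 0 were lower, where 33.0% were. Both calls together held for 127 of the 137 and for 694 genes in all (4.49% of those tested). As these contrasts chose the genes, the counts restate the rule. The 10 genes without both calls were 1004927, 1362764, 1403733, 1409307, 1409733, 1457405, 1484513 and 1485429, which missed the Day 4 call, and 372686 and 1406966, which missed the Day 15 call.

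The Day 10 libraries show where the genes stood against the control by then. Against the control, 75 of the 137 genes were higher on Day 10 (background 31.5%), 2 were lower (background 31.1%) and 60 passed in neither direction (edgeR's quasi-likelihood test, adjusted p of 0.05). The control libraries entered both the rule and this comparison. DESeq2 called the same numbers, 75 and 2. In the edgeR test an unadjusted p under 0.05 was found for 86 and 2 genes. The median difference between Day 10 and the control was 0.66, against -0.03 over all genes with a count, and without replicate 3 it was 0.88 against -0.03. Mean levels were above the control in 119 genes (background 49.2%) and below it in 18 (background 50.8%), with 39 genes at least 1 above (background 14.0%) and 0 at least 1 below (background 14.4%).

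Without Day 10 replicate 3 the count of higher genes was 105 (background 32.3%) and that of lower genes 1 (background 31.6%). Of the 75 genes higher with all libraries, 74 were also higher without replicate 3, and 31 others were added. Replicates 1 and 2 both exceeded every control library in 113 genes (background 37.6%), and replicate 3 did so in 68 (background 43.3%) and was below every control library in 50 (background 43.4%). All 3 exceeded every control library in 63 genes (background 33.4%).

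Replicate 3 was the lowest Day 10 library in 114 of the 137 genes, where 37.1% of all tested genes had it lowest, and the highest in 8, where 35.2% had it highest. The median difference from the control mean was 0.81 in replicate 1, 1.03 in replicate 2 and 0.15 in replicate 3. The largest gap was in gene 1482884, where replicate 3 was 3.28 below the mean of the others. The median SD over libraries was accordingly larger on Day 10 than elsewhere, at 0.129 in the control, 0.201 on Day 4, 0.456 on Day 10 and 0.152 on Day 15, against 0.118, 0.136, 0.222 and 0.136 in the same groups over all tested genes. The part of the library's own state in these values was not tested.

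Genes chosen by related limits were set beside them. Among 823 genes that were at least 1 below control on Day 4 and within 1 of it on Day 15, the median difference between Day 10 and the control was -0.58, and replicate 3 was the lowest Day 10 library in 51.9%. Among 913 genes within 1 of control on Day 4 and at least 1 above it on Day 15, that median was 1.02 and the share 73.3%. Over all genes with a count the share was 36.2%. The 137 genes, with a median of 0.66 and a share of 83.2%, lay between these groups in the Day 10 difference from the control. They lay above both in the share. These differences were not tested.

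On a scale from the Day 4 mean of a gene at 0 to its Day 15 mean at 100, the median Day 10 position was 70.2%, with quartiles of 60.4% and 79.7%. Past the midpoint were 124 of the 137 genes, and the share over all genes was not computed for this count or those by library. By library the median position was 75.7% in replicate 1, 80.0% in replicate 2 and 57.5% in replicate 3, and 126, 133 and 81 genes were past the midpoint in them. On the same scale the control libraries had median positions of 49.5%, 48.7% and 50.1%. The equal limits of the rule on either side of the control place the control near the middle of this scale, so nothing is read from the distance to it.

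**Figure D4:**
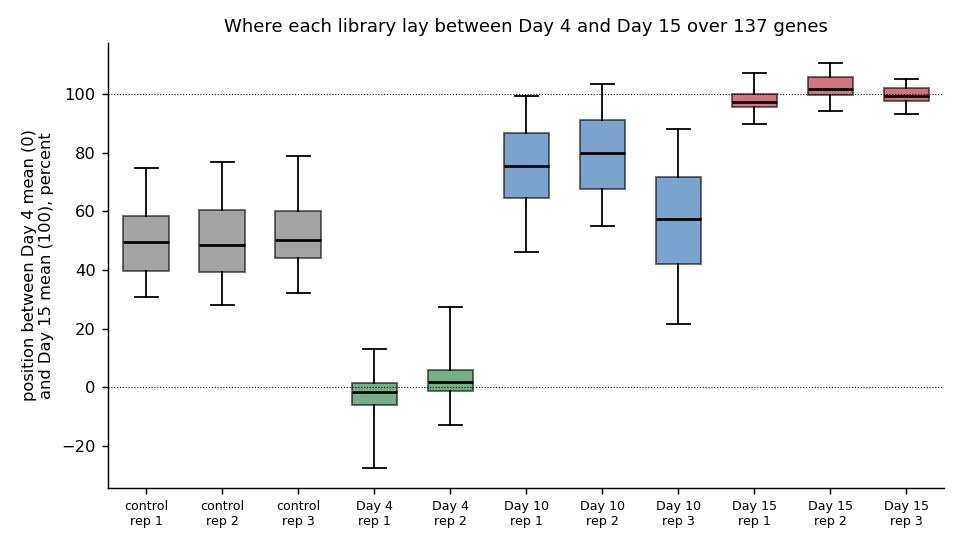
Position of each library (x axis, by group and replicate) between the Day 4 mean, at 0, and the Day 15 mean, at 100 (y axis, percent), over the 137 genes; boxes are quartiles with the median, and whiskers span percentiles 5 to 95. Median positions were 75.7%, 80.0% and 57.5% in the Day 10 libraries and 48.7% to 50.1% in the control libraries.

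The genes farthest above the control on Day 10 were 1483874, 1481770, 1457405 and 1409307. Gene 1483874 was at 10.65, 10.99 and 11.24 on Day 10, against 7.34, 7.12 and 7.26 in the control, with 3.56 and 3.89 on Day 4 and 9.20, 9.99 and 9.93 on Day 15. The log2 fold change between Day 10 and the control was 3.73 ± 0.21 (SE, edgeR, adjusted p 5.6e-09), and without replicate 3 it was 3.58 ± 0.19 (adjusted p 1.8e-09). Every Day 10 library was above every Day 15 library, and the edgeR fold change between Day 15 and Day 10 was -1.24 ± 0.19 on the log2 scale (adjusted p 0.000603).

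Gene 1485832 was the one other gene with a Day 10 mean above its Day 15 mean. It was at 9.67, 9.60 and 10.26 on Day 10, against 7.59, 7.29 and 7.66 in the control, with 6.49 and 5.78 on Day 4 and 8.97, 8.99 and 8.94 on Day 15. The log2 fold change was 2.34 ± 0.19 between Day 10 and the control (SE, edgeR, adjusted p 2.7e-07) and -0.92 ± 0.19 between Day 15 and Day 10 (adjusted p 0.00352). Without replicate 3 the Day 10 change against the control was 2.10 ± 0.15 (adjusted p 2.7e-08). In both of these genes replicate 3 was the highest Day 10 library, unlike in most of the others.

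Gene 1481770 was at 14.02, 14.24 and 13.09 on Day 10, against 10.67, 10.72 and 10.66 in the control, with 9.02 and 8.94 on Day 4 and 14.99, 14.92 and 15.17 on Day 15. Its log2 fold change between Day 10 and the control was 3.16 ± 0.23 (SE, edgeR, adjusted p 6.6e-08), and without replicate 3 it was 3.44 ± 0.10 (adjusted p 2.4e-12). The libraries of the 4 groups did not overlap in this gene.

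Gene 1457405 was at 12.82, 13.60 and 12.15 on Day 10, against 9.95, 9.86 and 10.09 in the control, and at 13.69, 13.98 and 13.91 on Day 15. The change between Day 10 and the control was 2.99 ± 0.52 on the log2 scale (SE, edgeR, adjusted p 0.000252), and without replicate 3 it was 3.28 ± 0.48 (adjusted p 4.7e-05). On Day 4 its libraries were at 7.44 and 10.32, so one lay far below the control and the other above it. The early dip of this gene thus rested on 1 library, and the edgeR fold change between Day 4 and the control was -0.52 ± 0.56 (adjusted p 0.443).

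Gene 1409307 was at 5.99, 5.40 and 5.64 on Day 10, against 3.79, 3.06 and 2.61 in the control, with 2.54 and 1.26 on Day 4 and 6.51, 5.96 and 6.39 on Day 15. Its Day 10 change was 2.55 ± 0.35 (log2, SE, edgeR, adjusted p 3.4e-05). Without replicate 3 it was 2.59 ± 0.39 (adjusted p 6.3e-05). Day 4 replicate 1 lay just below the lowest control library of this weakly transcribed gene, and replicate 2 lay well below it.

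At the other end, 4 genes were lowest against the control on Day 10. Gene 1405513 was at 7.59, 7.66 and 7.43 on Day 10, against 8.08, 8.39 and 8.36 in the control, with 3.70 and 4.02 on Day 4 and 10.41, 10.32 and 10.17 on Day 15. The log2 fold change between Day 10 and the control was -0.74 ± 0.12 (SE, edgeR, adjusted p 0.000182), and without replicate 3 it was -0.67 ± 0.13 (adjusted p 0.000695). All groups of this gene were separate from each other, and it was below the control on Day 10, when most of the genes had means above it.

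Gene 196564 was at 6.25, 6.14 and 6.03 on Day 10, against 6.65, 6.47 and 6.52 in the control, with 5.07 and 4.91 on Day 4 and 7.94, 8.18 and 8.0 on Day 15. Its change of -0.43 ± 0.15 on Day 10 passed the test (log2, SE, edgeR, adjusted p 0.0199), although it missed it without replicate 3 (adjusted p 0.0620). With gene 1405513 it made up the 2 genes called lower.

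The other low genes did not pass. Gene 1410163 was at 11.71, 11.95 and 10.13 on Day 10, against 11.54, 11.88 and 11.87 in the control, with 10.02 and 10.33 on Day 4 and 13.02, 12.69 and 12.71 on Day 15. Its Day 10 difference was -0.34 ± 0.32 (log2, SE, edgeR, adjusted p 0.374), and without replicate 3 it was 0.050 ± 0.14 (adjusted p 0.770). Replicates 1 and 2 lay within or just above the control range and replicate 3 well below it.

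Gene 1395842 was at 5.75, 6.32 and 5.33 on Day 10, against 6.41, 6.11 and 6.29 in the control, with 4.25 and 4.84 on Day 4 and 7.32, 7.89 and 7.82 on Day 15. Its Day 10 difference was -0.45 ± 0.25 (log2, SE, edgeR, adjusted p 0.133), and without replicate 3 it was -0.23 ± 0.24 (adjusted p 0.422). The Day 10 and control libraries of this gene overlapped.

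Among the most abundant genes the Day 10 result was mixed. Genes 1359157 and 1560534 were higher than the control, by 1.69 ± 0.19 (adjusted p 5.1e-06) and 1.03 ± 0.28 (adjusted p 0.00664), and so was gene 1559509, by 0.92 ± 0.29 (adjusted p 0.0140; log2, SE, edgeR in each case). Without replicate 3 these genes gave 1.94 ± 0.08 (1359157), 1.37 ± 0.14 (1560534) and 1.26 ± 0.15 (1559509), and all passed. Genes 1409925 and 1466469 gave 0.32 ± 0.37 (adjusted p 0.461) and 0.16 ± 0.43 (adjusted p 0.766), with libraries on both sides of the control. Gene 1396291 gave 0.36 ± 0.15 (adjusted p 0.0514) and, without replicate 3, 0.54 ± 0.10 (adjusted p 0.000307).

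Of the genes with the widest swing, 1482366 was higher on Day 10 than in the control by 2.46 ± 0.29 (log2, SE, edgeR, adjusted p 8.3e-06) and gene 1454452 by 0.57 ± 0.20 (adjusted p 0.0224). Genes 1482884 and 1403378 did not pass, with 1.24 ± 0.55 (adjusted p 0.0633) and 0.46 ± 0.49 (adjusted p 0.430). Without replicate 3 both passed, at 1.76 ± 0.16 (adjusted p 4.5e-07) and 0.91 ± 0.31 (adjusted p 0.0209). The changes without it were 2.81 ± 0.11 for gene 1482366 (adjusted p 4.0e-11) and 0.82 ± 0.10 for gene 1454452 (adjusted p 1.3e-05). Gene 1409925 passed as well without that library, at 0.70 ± 0.25 (adjusted p 0.0245), while gene 1466469 still missed the test, at 0.58 ± 0.28 (adjusted p 0.0882).

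Along the SSF course, all 137 genes were higher on Day 10 than on Day 4 (edgeR's quasi-likelihood test, background 22.3%), and 98 were higher on Day 15 than on Day 10 (background 11.7%) while 2 were lower (background 12.4%). The rule placed Day 4 low and Day 15 high, which favours these directions. Of the 75 genes above the control on Day 10, 51 were higher again on Day 15 than on Day 10 and 22 passed in neither direction in that later step. Of the 60 with no call against the control on Day 10, 45 were higher on Day 15 than on Day 10.

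The Day 4 values rested on 2 libraries, which did not fall together in every gene. The level of replicate 2 was above that of replicate 1 in 91 of the 137 genes, a count whose background was not computed. The median of replicate 2 minus replicate 1 was 0.12 over the 137 genes and 0.005 over all tested genes. The libraries differed by more than 1 in 23 genes (background 5.69%), with replicate 2 higher in 17 of these and replicate 1 in 6. Both libraries were at least 1 below the control mean in 108 genes, and in 29 only 1 was. Every Day 4 library lay below every control library in 133 genes (background 39.4%), a count that the rule favours. On Day 15, all 3 libraries were at least 1 above the control mean in 120 genes. The rule favours this count and that of 108 genes on Day 4, and their shares over all genes were not computed.

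In genes 1403733, 1457405 and 1484513 a Day 4 library exceeded the control mean. Gene 1484513 had 4 and 49 counts on Day 4, and gene 1403733 had 24 and 149. The largest gap was in gene 1406966, with 28 and 386 counts on Day 4 and levels of 5.12 and 9.07, against 10.45, 10.55 and 10.69 in the control. Gene 1481047 had 8 and 0 counts on Day 4, and a count of 0 allows up to 3 counts, at which its dip would be -2.48 in place of -3.66. In 8 genes both Day 4 counts were under 10, so that their dips were measured with little precision.

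The members were compared with the order of genes in the annotation of the sequenced monokaryon. A new sequence was taken to begin wherever the start position fell, which gave 456 runs. Genes at the ends of separate sequences could therefore be joined as neighbours. In the order of the annotation 19 of the 137 genes (13.9%) lay directly next to another of them, in 5 pairs and 3 groups of 3. The like share for other sets of genes was not computed, so whether this number is unusual was not tested. The group 512162, 1403378 and 1482884 had closely similar dips, of -5.24, -5.91 and -5.94, and late rises of 1.59, 1.58 and 1.79. Gene 512162 was at 13.77, 13.89 and 14.00 in the control, 8.01 and 9.28 on Day 4, 14.62, 15.04 and 12.53 on Day 10, and 15.47, 15.52 and 15.43 on Day 15. In all 3 genes Day 4 replicate 2 was above replicate 1 and Day 10 replicate 3 was below the control libraries. The spans of 512162 and 1403378 overlap by 286 bases, so that reads could be shared between them, and 1482884 follows after 1487 bases.

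Genes 886065, 1485574 and 1407051 stood 59 and 304 bases apart and dipped by -2.92, -3.54 and -2.84. Gene 1485574 was at 11.69, 11.81 and 11.88 in the control, 8.23 and 8.29 on Day 4, 13.32, 13.27 and 12.46 on Day 10, and 13.59, 13.65 and 13.74 on Day 15. Its Day 10 libraries were all above the control, and the change was 1.25 ± 0.17 (log2, SE, edgeR, adjusted p 3.6e-05), and without replicate 3 it was 1.49 ± 0.08 (adjusted p 3.3e-09). The late rises of the group were 1.33, 1.87 and 2.13.

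Adjacent genes did not always move by like amounts. In the group 1482366, 1402673 and 1555756, spaced by 76 and 95 bases, the dips were -4.58, -1.55 and -1.68, and the Day 10 differences from the control were 2.34, 1.55 and -0.18. In the pair 1559509 and 1559510, which lie 1004 bases apart, the dips were -9.01 and -3.29 and the late rises 2.26 and 2.66. Gene 1559510 was at 11.69, 11.66 and 11.95 in the control, 8.50 and 8.46 on Day 4, 12.95, 13.38 and 11.19 on Day 10, and 14.39, 14.52 and 14.39 on Day 15. Its Day 10 replicate 3 was below the control libraries, whereas the other Day 10 replicates were above them.

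The pair 1560534 and 1410494 had dips of -5.35 and -3.06 and late rises of 1.95 and 1.35, and their spans overlap by 137 bases. The gene before them, 1488153, is not among the 137. Its mean level differed from the control by -6.06 on Day 4 and by 0.39 on Day 15, which is under the limit. Genes 1403104 and 1482685, with 1618 bases between them, dipped by -4.35 and -1.73. The remaining pairs were 265100 with 264986, which overlap by 405 bases and dipped by -1.23 and -1.43, and 1180105 with 1487638, which dipped by -1.62 and -1.28.

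**Figure D5:**
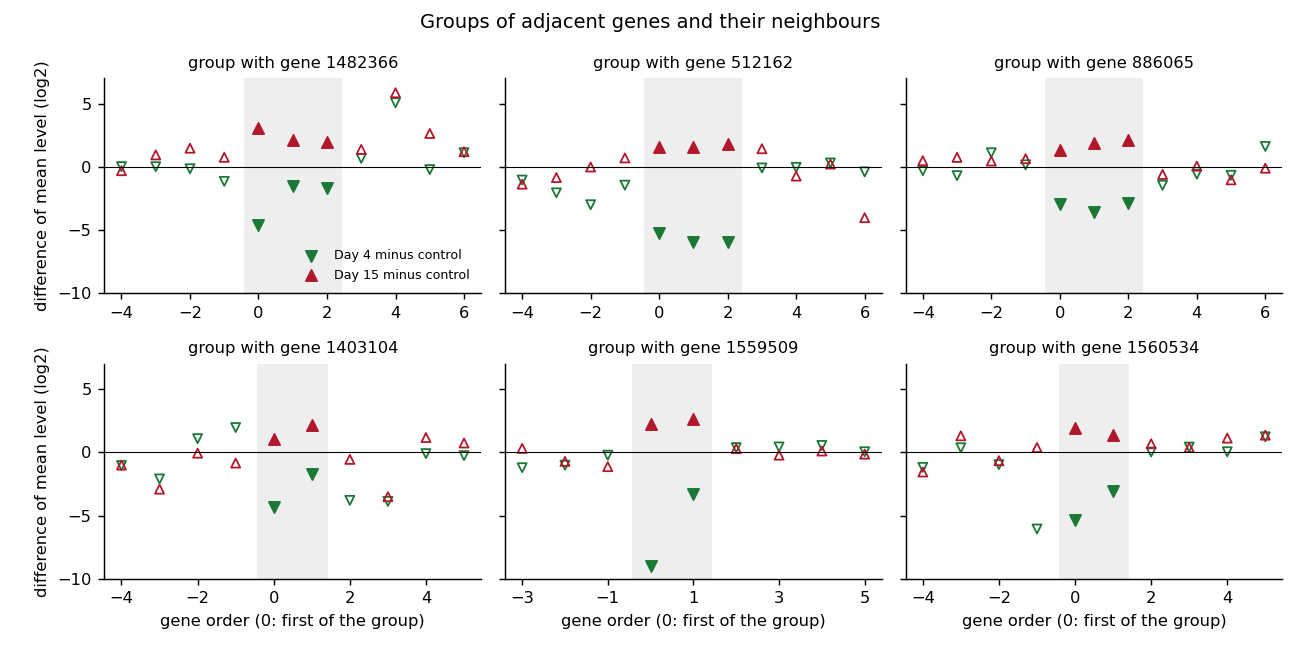
Mean level on Day 4 minus control (downward triangles) and on Day 15 minus control (upward triangles), on the log2 scale of the y axis, for 6 of the 8 groups of adjacent members and the genes around them in annotation order (x axis, 0 is the first gene of the group). Filled symbols in the shaded band are members and open symbols are other genes; in the panel of gene 1560534, the open symbol at -6.06 beside the band is gene 1488153.

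Genes flanking the members were counted against the same limits. Of 240 directly neighbouring genes outside the group, 57 (23.8%) were at least 1 below the control on Day 4, against 18.2% of all genes with a count, and 55 (22.9%) were at least 1 above it on Day 15, against 15.6%. Their median differences from the control were -0.13 on Day 4 and 0.25 on Day 15. These shares were not tested. Spans of 29 members (21.2%) overlapped that of a neighbouring gene, as did 24.8% of all genes.

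Gene families that the study followed on straw were set beside the group. None of their genes had the pattern by test, that is, lower than the control on Day 4 and higher on Day 15 (edgeR, background 4.49%). At that background lists this short would hold few such genes. Lists that the study chose for high Day 4 levels could hardly hold one. Nothing is therefore read from this absence. Each count below stands beside a background of 32.2% of all tested genes lower on Day 4 and 33.0% higher on Day 15. The AA2 family holds the class II peroxidases that oxidise lignin; 3 of its 19 genes were lower on Day 4 and 14 were higher on Day 15, with 0 in both. The AA3 family holds oxidoreductases of the glucose-methanol-choline type, several of which supply hydrogen peroxide; 11 of 33 tested genes were lower on Day 4 and 13 higher on Day 15, again with 0 in both, and the Day 4 count is near the background. Of carbohydrate-active enzymes that the study chose as raised on Day 4, the 52 analysed here, fewer than the study's text counts, included 0 that were lower on Day 4 and 50 that were higher on Day 15.

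Of the study's core set, defined by high levels on all 3 SSF days, none of 11 cytochrome P450s, 4 glutathione S-transferases and 14 major facilitator transporters was lower on Day 4, and all 11, 4 and 14 were higher on Day 15. Cytochrome P450s and glutathione S-transferases modify and conjugate foreign compounds, and major facilitators carry small molecules across membranes. These lists and the carbohydrate-active enzymes were chosen by the study on the same libraries, so their directions, on Day 15 as well for the core set, are not independent evidence. Of 20 single-copy genes used by the study for a phylogeny, 3 were lower on Day 4 and 4 higher on Day 15, with 0 in both.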

How the data were processed

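The authors deposited whole-number counts of reads per predicted gene, which were analysed as deposited for 11 libraries and 18244 genes. The authors checked reads with FastQC, trimmed them with Sickle (quality 20, length 20), aligned them by TopHat2 with the genome of a derived monokaryon, keeping unique mappings, and counted them with HTSeq. Tool versions other than DESeq 1.5, named in the submitters' notes, and the strand mode are not stated in the sources used here, so genes with near-identical copies or overlapping spans are uncertain. The labels give another read length than the methods. The study calls the cultures biological replicates in triplicate, while Day 4 has 2 libraries here.

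Levels were log2(count / median-of-ratios size factor + 1) in Python 3.11.15 with pandas 2.3.3. Groups were compared with edgeR 4.0.16 in R 4.3.3 (TMM, filterByExpr with a minimum count of 10 and total of 15, 1 fit of 4 group means, quasi-likelihood F test, Benjamini-Hochberg adjustment over 15462 genes), tested on simulated data. SE is the absolute log2 fold change over the square root of F. DESeq2 1.42.0 and the other alternatives are given in the closing section. The members and lists were chosen with earlier results of these data known. Genes named are the 6 with the highest Day 15 level, the 6 with the largest difference between Day 15 and Day 4, the 4 highest and 4 lowest on Day 10 against control, and those beside each limit. Others (gene 1485832, adjacent genes, genes with uneven Day 4 libraries or without both calls) were named after their values were seen. Gene order and spans came from RefSeq's annotation of that monokaryon, which matched 18240 genes. Library totals of 20368063 to 42408348 set the precision.

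Pairing by replicate number was checked with the correlation of each library's deviations from its group mean over genes with a mean level of at least 6. Days 15 and 10 gave 0.193, 0.171 and 0.126, all above 0.1, a hint from the data and not from the labels. Days 10 and 4 gave 0.297 and 0.310, and Days 15 and 4 gave 0.188 and 0.185. Within each of these pairs the values are not independent, as the deviations of 2 Day 4 libraries mirror each other. With the control the values were 0.248 and -0.043 on Day 4. They were 0.240, 0.016 and 0.143 on Day 10 and 0.113, -0.035 and 0.009 on Day 15, and no pairing was taken there. Libraries of unlike replicate number were not correlated, so these values have no baseline.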

Additional observations from a re-analysis of the deposited data

Results flagged for a closer look

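Along the SSF course, 137 of the 137 genes were higher on Day 10 than on Day 4 (22.3% of all tested genes) and 98 were higher on Day 15 than on Day 10 (11.7% of all tested genes; edgeR's quasi-likelihood test, adjusted p of 0.05). They are listed here because these directions are opposite to that between Day 4 and the control, where 129 were lower (32.2% of all tested genes). The genes were chosen for low Day 4 and high Day 15 values, so the counts restate that choice and nothing is read from them.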

How the results depend on the processing

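The number of genes meeting the rule was 142 with TMM scaling, 155 with library totals, 139 with a pseudocount of 0.5, 130 from the log2 of the mean and 113 with a control level of at least 6. Leaving out 1 library gave 128 to 168, the extremes without Day 4 replicates 1 and 2. Under all 16 settings 89 genes met the rule, and 243 did so under at least 1. The median Day 10 difference from the control was 0.41 with library totals, which moved the median of all genes by -0.24, and 0.45 to 0.87 with 1 library left out. Scaling by library totals in edgeR, chosen after seeing the data, left 60 genes higher (background 23.0%) and 5 lower (background 41.5%) on Day 10.

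With 1 library left out, the genes called were 112 to 131 lower on Day 4 than in the control, 58 to 105 higher and 1 to 4 lower on Day 10 than in the control, 133 to 136 higher on Day 15 than in the control, 125 to 137 higher on Day 10 than on Day 4, 86 to 105 higher on Day 15 than on Day 10, and 137 higher on Day 15 than on Day 4. The Day 10 range ran from 58 without Day 10 replicate 2 to 105 without replicate 3. Where this left 1 Day 4 library, it was assumed to vary like the other groups.

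With the replicate block, 133 genes were lower on Day 4 and 76 were higher and 2 lower on Day 10, 135 were higher on Day 15 against the control, 102 were higher on Day 15 than on Day 10, and 137 were higher on Days 10 and 15 than on Day 4. Over all settings the count of genes lower on Day 10 than in the control moved from 2 to between 1 and 5. No other count of calls moved by over 1.5 times.

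Without the 10 most abundant genes of each library, the share of counts was 2.06% in the control and 4.14% on Day 15. With 1 library left out, the mean share was 2.50% to 2.59% in the control, 0.330% to 0.396% on Day 4, 3.10% to 4.23% on Day 10 and 8.10% to 8.67% on Day 15. Gene 1410163 ran from -0.66 to 0.050 on Day 10 with 1 library left out, and was above 0 without Day 10 replicate 3. Gene 1395842 passed the Day 10 test with library totals (adjusted p 0.0247) and without Day 10 replicate 2 (adjusted p 0.0231). Gene 196564 missed it with only the compared groups (adjusted p 0.0503) and without control replicate 1 (adjusted p 0.0843) or Day 10 replicate 3 (adjusted p 0.0620). The causes were not tested. On Day 4 precision was limited by 2 libraries, and by counts under 10 in 8 genes.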
